A study of Sus scrofa with 6 samples.

Results

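Of the 121055 loci assembled from pig liver RNA, 2489 carried an Ensembl gene identifier but no gene symbol, lay on chromosomes 1 to 18 and had a mean of at least 1 FPKM over the 6 pigs. FPKM is the number of sequenced fragments per kilobase of exon, scaled to the mapped fragments of the library. The mean level chose these loci, so levels are given as a description. Before the level was applied, 6267 symbol-less loci lay on these chromosomes. Just inside the limit stood ENSSSCG00000026698 at 1.001 FPKM and just outside it ENSSSCG00000010914 at 0.997 FPKM.

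Livers came from 3 normal and 3 IUGR pigs of the PIC breed, 150 days of age, raised in a common environment, with 1 library per pig. The paper reports that the piglets were male and that feed was withheld before slaughter. Each litter gave an IUGR and a normal piglet, and the pigs for sequencing were picked at random within each group. IUGR is intrauterine growth restriction, here defined by a low birth weight and not by a mutation or a treatment. The question of the comparison was how the adult liver differs between pigs of low and of normal birth weight. Hepatocyte markers summed to 16293–20194 FPKM in normal pigs and 18658–21822 FPKM in IUGR libraries, although ALB was listed at 0 in all libraries and TF in 3, where the table reports no finished estimate. Muscle markers stayed at or below 0.516 FPKM in sum and pancreas markers at or below 1.16 FPKM, with PRSS1, which defines pancreas, not found under its symbol.

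A locus without a symbol is one for which the annotation predicts a gene but gives it no name, often because it is a recent copy within a gene family or could not be matched to a single gene of another species. In liver such families are common, since cytochromes P450, glucuronosyltransferases, serpins and acyltransferases lie in tandem clusters of similar genes. These enzymes oxidize and conjugate drugs, steroids and bile acids, and the serpins are secreted protease inhibitors of plasma. Fragments from near-identical copies can be divided among them in more than one way, and the levels of such copies are uncertain for this reason.

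The 2489 loci carried 2486 distinct identifiers. An identifier was shared with another row in 172 cases, and 88 loci joined several identifiers. A description in the deposited table or a symbol in the reference tables could be found for 1031, whereas 1458 had neither, and of these 920 had Gene Ontology (GO) terms and 538 had none. Only 6.79% had a description, against 96.3% of the 8440 loci with a symbol on the same chromosomes and at the same level. Their median level was 5.21 FPKM, against 7.64 FPKM, and their median length was 27.3 kb, against 29.2 kb. The pooled SD within groups, on the log2(FPKM + 1) scale, had a median of 0.280 for them and of 0.292 for loci with a symbol. In each library they took between 13 and 13.7% of the FPKM of all loci with an identifier. Their share among expressed annotated loci ran from 17.0% on chromosome 7 to 30.3% on chromosome 11.

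Some symbol-less loci lay next to each other. A member lay beside another member for 1141 rows. Runs of at least 4 members with no other annotated locus between them numbered 48 and held 220 rows. Some runs were rows of a single identifier, as were the 7 rows between MURC and BAAT on chromosome 1. How often loci with a symbol lay side by side was not counted. The longest run held 8 rows between TMPRSS11E and UGT2A3 on chromosome 8. Runs of 6 lay between SMYD3 and TLR5 on chromosome 10, where mean levels ran from 2.31 to 14.6 FPKM, and between GOLGA4 and PLCD1 on chromosome 13, where they ran from 2.03 to 82.3 FPKM.

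Libraries differed in ways that cut across the groups. Normal 1, IUGR 2 and IUGR 3, which had the higher total mapped ratio in the alignment summary of the study, had member medians of 2.84, 2.81 and 2.65 on the log2(FPKM + 1) scale. The medians of normal 2, normal 3 and IUGR 1 were 2.44, 2.34 and 2.58. For 2246 of the 2489 members (90.2%) the mean of the first set was above that of the second, by a median of 0.34. The shift was not particular to the members. Over all 14727 annotated loci of at least 0.3 FPKM the medians were 2.79, 2.77 and 2.61 in normal 1, IUGR 2 and IUGR 3. They were 2.40, 2.27 and 2.54 in normal 2, normal 3 and IUGR 1. IUGR 2 and IUGR 3 were the closest libraries, with 3 of 769 members of at least 10 FPKM (0.390%) over 2-fold apart once the overall shift was removed, against 22–44 (2.86–5.72%) for the other pairs. The labels do not say which of these pigs came from the same sow, and p-values measure the spread between the pigs at hand.

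The most abundant locus was the joined pair ENSSSCG00000030371 and ENSSSCG00000002484, on chromosome 7 between SERPINA5 and SERPINA3-3, at 3596, 1774 and 1819 FPKM in normal pigs 1 to 3 and at 3945, 2868 and 2452 FPKM in IUGR pigs 1 to 3. On the same interval ENSSSCG00000002482 stood at 977, 791 and 600 FPKM in normal and at 1861, 417 and 346 FPKM in IUGR pigs. The ratio of the first locus to the second therefore ranged from 2.12 in IUGR 1 to 7.09 in IUGR 3. ENSSSCG00000005395 on chromosome 1, with the GO term of fructose-bisphosphate aldolase, the enzyme that cleaves the 6-carbon sugar of glycolysis, stood at 2717, 1912 and 1899 FPKM in normal and at 2108, 3235 and 3234 FPKM in IUGR pigs. ENSSSCG00000030522, beside ADH4 on chromosome 8 and with terms of ethanol breakdown and retinol metabolism, stood at 3806, 1812 and 1235 FPKM in normal and at 1585, 2739 and 2419 FPKM in IUGR pigs. The groups overlapped at each of these loci.

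Secreted plasma proteins followed. PLG, the precursor of the clot-dissolving enzyme plasmin, stood at 2429, 1401 and 1193 FPKM in normal and at 1775, 2450 and 2113 FPKM in IUGR pigs. The central complement component C3 was between 1527 and 2466 FPKM in the normal and between 1723 and 1957 FPKM in IUGR pigs. FGG, the gamma chain of fibrinogen, ran from 969 to 1735 FPKM and from 1226 to 1650 FPKM. Also among the 12 highest loci were a metallothionein (ENSSSCG00000023305 and ENSSSCG00000024911), which binds zinc and copper, at 506, 1280 and 1496 FPKM in normal pigs and 615, 2683 and 2224 FPKM in IUGR pigs, and FTH1, the ferritin heavy chain that stores iron, at 711–1175 FPKM and 1038–1225 FPKM. No group stood apart at these loci.

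**Figure D1:**
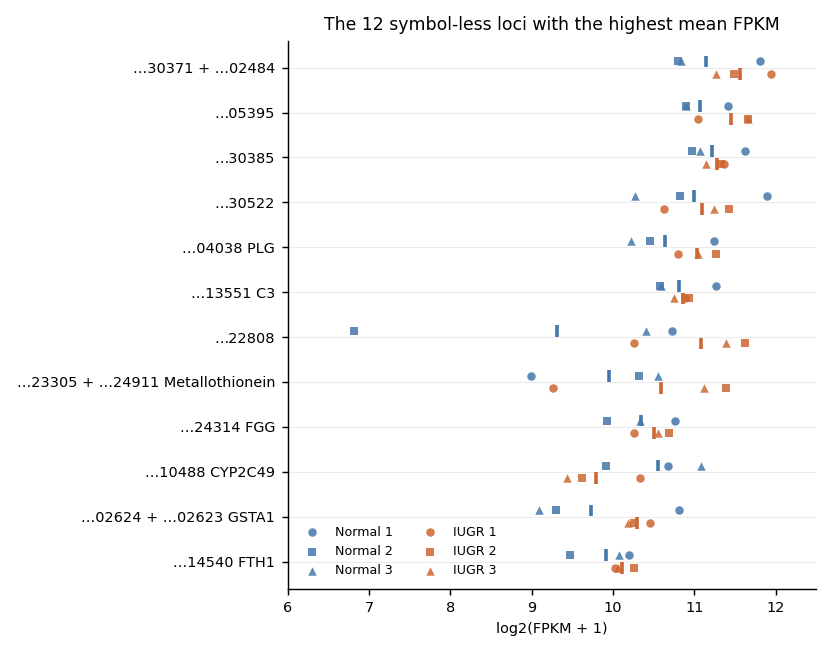
Level of the 12 symbol-less loci with the highest mean FPKM, as log2(FPKM + 1) on the x axis, with 1 marker per pig (blue normal, orange IUGR), a bar at each group mean, and loci labelled by the last digits of their identifier and a name where one was found. The groups overlapped at all 12 loci, and the lowest marker belongs to ENSSSCG00000022808 in normal 2, at 111 FPKM.

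Across all 14727 annotated loci of at least 0.3 FPKM, limma with Benjamini-Hochberg adjustment called no member higher and no member lower in IUGR pigs at an adjusted p under 0.05, where 0.00679% and 0.0136% of all tested loci were called. At an unadjusted p under 0.05, 157 members were higher (6.31%) and 20 lower (0.804%), beside 6.0% and 0.794% of all tested loci. All 3 IUGR pigs stood above all 3 normal pigs at 222 members (8.92%) and below them at 18 (0.723%), beside 8.39% and 1.22% of all tested loci. These shares are close to the background. The mean of 1 FPKM was reached only through the IUGR group at 29 of the 157 and only through the normal group at 7 of the 20, and among the 2389 members at 1 FPKM or more in both groups 128 were higher (5.36%) and 13 lower (0.544%), beside 4.91% and 0.527% of all loci that met the same limit. The median log2 fold change of the members, IUGR minus normal on the log2(FPKM + 1) scale, was 0.15, as it was over all tested loci, with quartiles of 0.02 and 0.30. Its size was at least 1 at 39 members, 29 of them positive and 10 negative. Over all 14727 tested loci this size was reached at 177, 128 of them positive and 49 negative. The values of the members ranged from -3.88 to 3.61. The upper end, ENSSSCG00000024402, rests on a failed estimate listed as 0 in normal 1, and it was 0.81 without that library. Scaling the libraries to the same median left a median of 0.00 and gave 140 members higher (5.62%) and 97 lower (3.9%) at an unadjusted p under 0.05, beside 5.0% and 3.43% of all tested loci, and quantile scaling gave 135 (5.42%) and 122 (4.9%), beside 5.47% and 4.43%. Within the set with the higher mapped ratio the median was -0.10 (IUGR 2 and IUGR 3 against normal 1), and within the other set it was 0.19 (IUGR 1 against normal 2 and normal 3). The direction of the median therefore did not hold within both sets, each of which had 1 group with a single library.

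**Figure D2:**
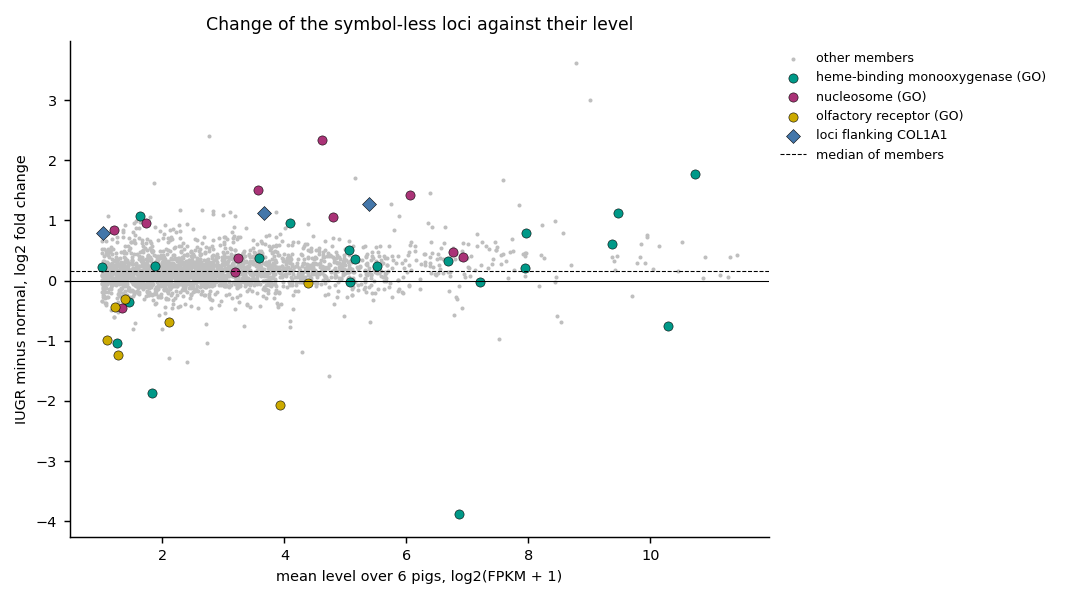
Log2 fold change (IUGR minus normal) of each of the 2489 symbol-less loci on the y axis against its mean level over 6 pigs, log2(FPKM + 1), on the x axis, with 3 GO groups and the loci flanking COL1A1 in colour. Nucleosome loci and the loci flanking COL1A1 lie mostly above the dashed median of 0.15, olfactory receptor loci lie below 0, and the lowest point is the monooxygenase locus ENSSSCG00000024537 at -3.88.

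Histones wind DNA into nucleosomes, and 10 of the 11 members with the GO term nucleosome lay on chromosome 7, most of them among named HIST1 genes. At an unadjusted p under 0.05, 6 of the 11 were higher in IUGR pigs and none lower, beside 6.0% and 0.794% of all tested loci. All 3 IUGR pigs stood above all normal pigs at 4 of the 11, beside 8.39% of all tested loci. The median log2 fold change was 0.84, beside 0.15 over all tested loci. With the mapped-ratio set as a term, 6 were higher and 1 was lower, with a median of 0.64, beside 5.53% higher and 1.97% lower and a median of 0.06 over all tested loci. Of the 6 higher without that term, ENSSSCG00000020971 reached 1 FPKM only through the IUGR group. The class of histones and chromatin, set by descriptions and symbols and not by GO terms, had 1 of 11 members higher without that term. Its median log2 fold change was 0.13. ENSSSCG00000029773, between HIST1H4D and HIST1H2AD (chr7:23097462-23164791 of Sscrofa10.2, an interval shared with 3 other annotated loci), stood at 5.34, 4.42 and 12.1 FPKM in normal and at 24.3, 53.2 and 41.4 FPKM in IUGR pigs. Every IUGR pig was above every normal pig, and the value for IUGR minus normal was 2.34 on the log2 scale (SE, standard error, 0.37), with a limma adjusted p of 0.0505. Its adjusted p was 0.254 with median scaling, 0.272 with quantile scaling, 0.169 with the mapped-ratio set and 0.480 without a filter on low values. With a library left out it ran from 0.00037 without IUGR 1 to 0.0755 without normal 1, and it was under 0.05 in the other 4 of these fits and in 9 of 18 alternatives in all.

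ENSSSCG00000001134, described as histone H2B, one of the core proteins of the nucleosome, stood at 27.6, 32.9 and 44.1 FPKM in normal and at 64.5, 123 and 103 FPKM in IUGR pigs. The groups did not overlap, and the log2 fold change was 1.42 ± 0.32 (SE) with an adjusted p of 0.235, within a range of 0.0254 without IUGR 1 to 0.588 over the alternatives. ENSSSCG00000026572, between HIST1H2AD and HIST1H1B, stood at 2.67, 3.86 and 8.51 FPKM in normal and at 6.37, 24.0 and 19.7 FPKM in IUGR pigs. Here IUGR 1 lay within the normal range, and the log2 fold change was 1.5. ENSSSCG00000024918, at 22.9, 10.3 and 15.0 FPKM in normal pigs and 14.8, 54.8 and 43.0 FPKM in IUGR pigs, also had IUGR 1 among the normal pigs. The low loci ENSSSCG00000027435 and ENSSSCG00000020971 had log2 fold changes of 0.96 and 0.84, with all IUGR pigs above all normal pigs. The most abundant of the group did not separate. H2BC5 ran from 73.5 to 155 FPKM in normal pigs and from 84.2 to 173 FPKM in IUGR pigs, and ENSSSCG00000025307, 20 kb away, from 64.9 to 138 FPKM and from 69.3 to 173 FPKM.

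On chromosome 12 there were 3 members next to COL1A1, which encodes a chain of type I collagen, and at each every IUGR pig stood above every normal pig. These loci were singled out after their values were seen. ENSSSCG00000021015 (chr12:26416721-26419206) stood at 28.4, 19.6 and 21.3 FPKM in normal and at 75.4, 58.4 and 40.4 FPKM in IUGR pigs, with a log2 fold change of 1.27 ± 0.30 (SE) with an adjusted p of 0.254. ENSSSCG00000029074 (chr12:26474111-26477871), on the other side of COL1A1, stood at 8.52, 5.78 and 6.39 FPKM in normal and at 20.5, 15.6 and 12.9 FPKM in IUGR pigs, with a log2 fold change of 1.13. ENSSSCG00000027593, which reached the mean of 1 FPKM only through the IUGR group, stood at 0.689, 0.359 and 0.414 FPKM in normal and at 1.97, 1.74 and 1.06 FPKM in IUGR pigs. In all 3 the order within IUGR pigs was the same, with IUGR 1 highest and IUGR 3 lowest, and the ratio of the first locus to the second was 3.14–3.75 in every pig. COL1A1 itself, listed only as a short interval (chr12:26469601-26470127), was at 10.8, 10.9 and 8.45 FPKM in normal and at 28.1, 21.1 and 12.9 FPKM in IUGR pigs (log2 fold change 0.92, adjusted p = 0.476). The markers of stellate cells and fibroblasts summed to 57.2–101 FPKM in normal pigs and 219–282 FPKM in IUGR pigs, with 3 of 5 above in every IUGR pig and COL3A1 listed at 0 in normal 1, where its estimate failed. The part of these cells in the values was not tested, and in bulk liver a difference in the number of cells of a type and a difference in their RNA per cell cannot be told apart.

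**Figure D3:**
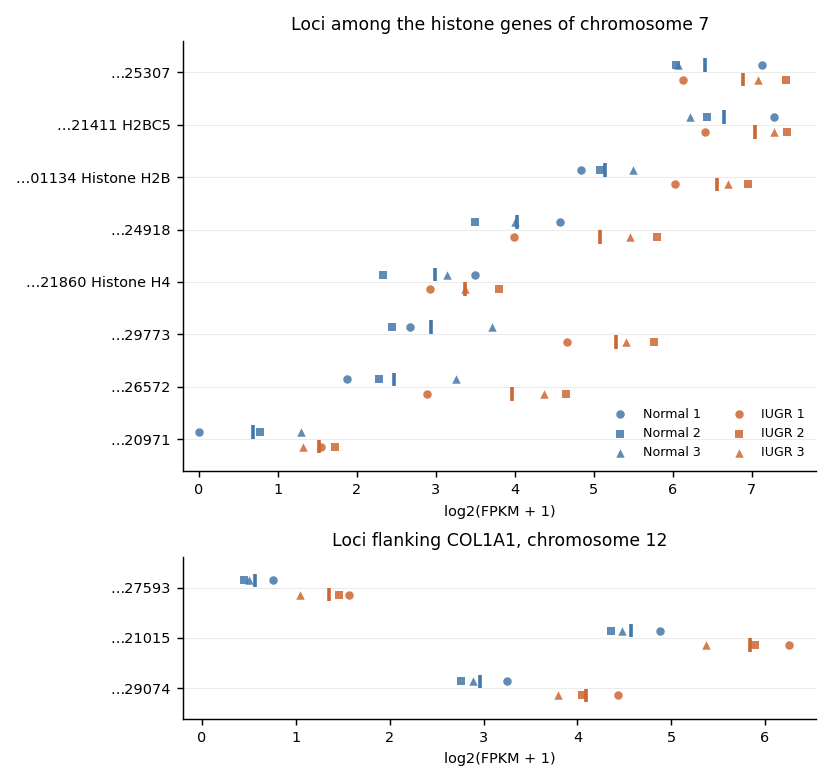
Levels per pig, log2(FPKM + 1) on the x axis, of the 8 symbol-less loci among the histone genes of chromosome 7 (top) and of the 3 loci flanking COL1A1 on chromosome 12 (bottom), with normal pigs in blue, IUGR pigs in orange and a bar at each group mean. ENSSSCG00000029773, ENSSSCG00000001134 and ENSSSCG00000020971 and all 3 loci by COL1A1 have every IUGR pig above every normal pig.

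Heme-binding monooxygenases, the GO terms that cytochromes P450 carry, made up 21 of the members with GO terms (1.22%). Among loci with a symbol and GO terms, on the same chromosomes and at the same level, the share was 0.175%. The 21 are rows and not genes, and several share an identifier, such as ENSSSCG00000003891. Of the 21, 1 stood higher and 3 stood lower in IUGR pigs with a limma unadjusted p below 0.05. The shares of all tested loci were 6.0% and 0.794%. With the mapped-ratio set as a term the counts were 3 and 2. At 4 of the 21 only 1 group had a mean of 1 FPKM or more. Among these were 2 of the 3 lower loci, which met the limit through the normal group alone. They were ENSSSCG00000003824 (normal mean 4.85, IUGR mean 0.280) and a row of ENSSSCG00000003891 (normal mean 2.19, IUGR mean 0.558). Because the limit favoured such loci, the counts of lower loci cannot show an excess over the background. ENSSSCG00000024537, between HELLS and CYP2C42 (chr14:115918186-115952879), stood at 162, 156 and 298 FPKM in normal and at 61.4, 6.57 and 4.09 FPKM in IUGR pigs. Every IUGR pig was below every normal pig, IUGR 2 and IUGR 3 far below, and the log2 fold change was -3.88 ± 0.70 (SE) with an adjusted p of 0.115. Its adjusted p was 0.311 with median scaling, 0.323 with quantile scaling, 0.169 with the mapped-ratio set and 0.578 without a filter on low values. It was 2.23e-08 without IUGR 1, 0.0235 without normal 2, 0.0159 without IUGR 2 and 0.0132 without IUGR 3, and 0.0875 and 0.310 without normal 1 and normal 3, and it was under 0.05 in 7 of 18 alternatives in all. Its neighbour ENSSSCG00000010487 stood at 321, 32.4 and 134 FPKM in normal and at 238, 81.5 and 69.0 FPKM in IUGR pigs, with IUGR 1 again the highest of its group. CYP2C49, a further neighbour, was at 1632, 963 and 2169 FPKM in normal and at 1286, 787 and 688 FPKM in IUGR pigs, a log2 fold change of -0.76 with overlapping groups.

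The loci near CYP2C42 did not share a direction. ENSSSCG00000010487 had a log2 fold change of -0.02, and CYP2C42 itself was at 0.01. A row of ENSSSCG00000010491, beside CYP2C42, had all IUGR pigs above all normal pigs (log2 fold change 1.17, limma adjusted p = 0.269). Another row of that identifier had overlapping groups, at -0.35. The monooxygenase loci by ERLIN1, farther along chromosome 14, were higher in IUGR pigs. CYP2C33 was at 565, 582 and 432 FPKM in normal and at 891, 792 and 712 FPKM in IUGR pigs, and ENSSSCG00000010549 at 434, 733 and 250.2 FPKM in normal and at 859, 960 and 998 FPKM in IUGR pigs. At both loci all IUGR pigs were above all normal pigs, with log2 fold changes of 0.61 (adjusted p = 0.836) and 1.12 (adjusted p = 0.591). The most abundant monooxygenase locus, ENSSSCG00000022808 beside CYP2B22 on chromosome 6, stood at 1685, 111 and 1351 FPKM in normal and at 1221, 3138 and 2670 FPKM in IUGR pigs. The value of normal 2 lay far below the others, and the log2 fold change of 1.77 had a standard error of 0.82. ENSSSCG00000003824, beside CYP2J34, stood at 8.97, 0.500 and 5.07 FPKM in normal and at 0.794, 0.0332 and 0.0145 FPKM in IUGR pigs, with normal 2 below IUGR 1 (log2 fold change -1.86, adjusted p = 0.376). Its adjusted p ran from 9.84e-05 without normal 2 (log2 fold change -2.66) to 0.771, and it was 0.0112 without IUGR 1. The locus reached 1 FPKM only through the normal group.

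The 10 rows of the UGT2 neighbourhood on chromosome 8 differed widely between pigs of the same group, and only at ENSSSCG00000026944 (150, 58.2 and 119 FPKM in normal and 155, 193 and 176 FPKM in IUGR pigs) did the groups not overlap. UGT2 enzymes attach glucuronic acid to steroids, bile acids and drugs. UGT2B31 (ENSSSCG00000030074) stood at 280.4, 163 and 78.4 FPKM in normal and at 5.15, 279 and 282 FPKM in IUGR pigs. ENSSSCG00000022724, in the same run, stood at 5.28, 2.34 and 155 FPKM in normal and at 335, 4.12 and 4.0 FPKM in IUGR pigs. Normal 3 and IUGR 1 were thus the only pigs above 100 FPKM at the latter and the lowest at the former. The ratio of ENSSSCG00000022724 to UGT2B31 was 0.0142–0.0188 in the other 4 pigs, 1.98 in normal 3 and 65.0 in IUGR 1. The most abundant row, ENSSSCG00000008935, stood at 1312, 578 and 498 FPKM in normal and at 289, 1609 and 1495 FPKM in IUGR pigs, with IUGR 1 lowest. No row of the neighbourhood had an unadjusted p under 0.05.

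**Figure D4:**
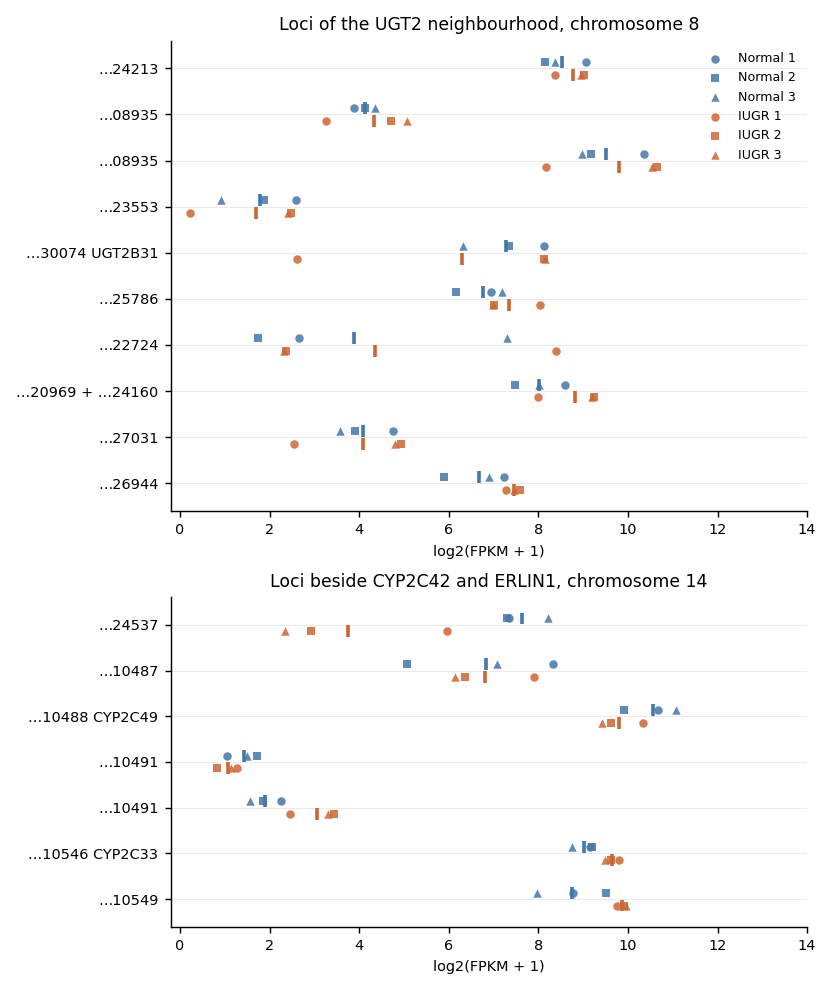
Levels per pig, log2(FPKM + 1) on the x axis, of the 10 rows of the UGT2 neighbourhood (top) and of the 7 rows by CYP2C42 and ERLIN1 (bottom), in order along chromosomes 8 and 14, with normal pigs in blue, IUGR pigs in orange and a bar at each group mean. At UGT2B31 IUGR 1 is far to the left of all other pigs and at ENSSSCG00000022724 it is farthest right, while at ENSSSCG00000024537 all 3 IUGR pigs lie left of the normal pigs.

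A few members were abundant in some pigs and almost absent in others. With a highest value of at least 20 FPKM and a lowest below 1 FPKM, limits set after the values were seen, 10 members qualified (0.402%), as did 22 loci with a symbol (0.261%). ENSSSCG00000029401, between SERPINA1 and UABP-2 (chr7:122647940-122685025), stood at 845, 0.255 and 409 FPKM in normal and at 568, 652 and 604 FPKM in IUGR pigs, so that only normal 2 was near 0. ENSSSCG00000026131 on chromosome 13, with the GO term of hydrolase activity, was at 560, 0.930 and 312 FPKM in normal and at 164, 175 and 156 FPKM in IUGR pigs, again with normal 2 alone near 0. LAMTOR5 (ENSSSCG00000006806), a subunit of the complex that tethers nutrient signalling to lysosomes, stood at 143, 87.4 and 0 FPKM in normal and at 0, 137 and 279 FPKM in IUGR pigs. A peptidase inhibitor locus beside A2M, ENSSSCG00000024402, was listed at 0 in normal 1, where its estimate failed, and at 222 and 524 FPKM in the other normal pigs and 374, 769 and 739 FPKM in IUGR pigs. One row of ENSSSCG00000003891, in the CYP4 interval that 12 annotated loci share, was at 225, 7.6 and 105 FPKM in normal and at 0, 582 and 553 FPKM in IUGR pigs. None of these patterns followed the groups.

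**Figure D5:**
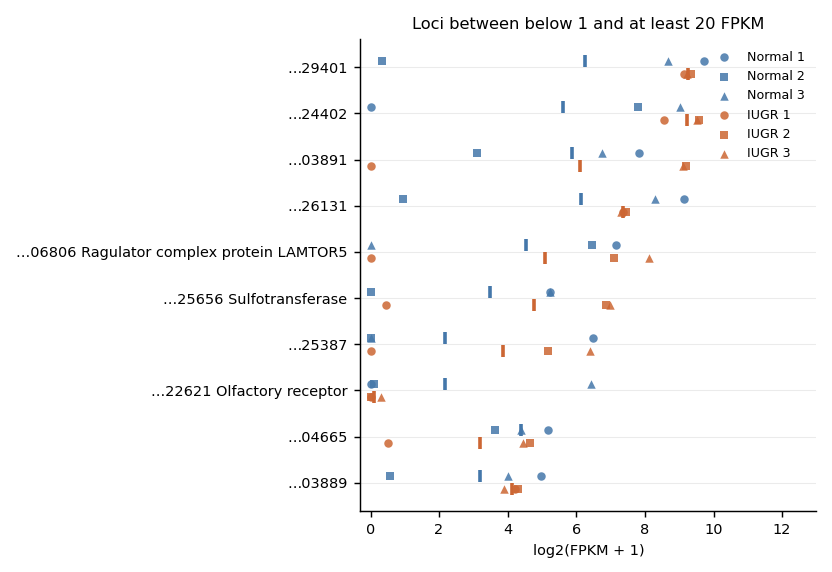
Levels per pig, log2(FPKM + 1) on the x axis, of the 10 symbol-less loci with at least 20 FPKM in a pig and below 1 FPKM in another, with normal pigs in blue, IUGR pigs in orange and a bar at each group mean. ENSSSCG00000029401 is near 0 only in normal 2, and LAMTOR5 is at 0 in normal 3 and IUGR 1.

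Olfactory receptors, the odorant receptors of the nose, are a large tandem family whose transcripts are scarce in liver. Of the 7 rows with that GO term, from 6 identifiers, 4 reached the mean of 1 FPKM only through the normal group, so their common sign is no result. ENSSSCG00000000353, between OR6C76 and RDH5 (chr5:22531915-22532851), is one of these and stood at 1.73, 2.03 and 3.49 FPKM in normal and at 0.304, 0.454 and 0.515 FPKM in IUGR pigs. The groups did not overlap, and the log2 fold change was -1.23 ± 0.20 (SE) with an adjusted p of 0.0505 over all loci of at least 0.3 FPKM. It was 0.309 with median scaling, 0.260 with quantile scaling and 0.169 with the mapped-ratio set, ran from 0.00853 to 0.0858 with a library left out, and was under 0.05 in 8 of 18 alternatives in all. The 3 rows at 1 FPKM or more in both groups had log2 fold changes between -0.69 and -0.04. ENSSSCG00000022621 was at 84.7 FPKM in normal 3 and at or below 0.245 FPKM in the other 5 pigs.

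Other members with the lowest p in each direction were mostly scarce. TMED6, a cargo receptor of the early secretory pathway whose normal mean was below 1 FPKM, stood at 0.770, 0.958 and 0.647 FPKM in normal and at 1.82, 2.73 and 2.75 FPKM in IUGR pigs (log2 fold change 0.93, adjusted p = 0.161). ENPP6, a phosphodiesterase, stood at 2.29, 1.17 and 2.17 FPKM in normal and at 4.73, 4.16 and 4.12 FPKM in IUGR pigs (log2 fold change 0.92, adjusted p = 0.237). ENSSSCG00000023268, between SERPINA6 and SERPINA1, stood at 1.09, 1.55 and 0.855 FPKM in normal and at 2.38, 3.27 and 3.26 FPKM in IUGR pigs (log2 fold change 0.88, adjusted p = 0.232). Every IUGR pig was above every normal pig at all 3, and without IUGR 1 the adjusted p of TMED6 was 0.00853 and that of ENSSSCG00000023268 was 0.0339, the lowest of ranges that reach 0.480 and 0.561. In the other direction, ENSSSCG00000000414 (chr5:24089391-24105570), an oxidoreductase that the table places in retinol metabolism, stood at 7.12, 9.64 and 7.09 FPKM in normal and at 3.04, 3.37 and 3.55 FPKM in IUGR pigs (log2 fold change -1.04, SE 0.22, adjusted p = 0.198). A second row with this identifier and interval stood at 25.6, 14.1 and 7.04 FPKM in normal and at 4.12, 15.0 and 16.8 FPKM in IUGR pigs, where the groups overlapped. ENSSSCG00000026250, between PARPBP and DRAM1, stood at 22.7, 20.6 and 18.2 FPKM in normal and at 13.7, 12 and 9.30 FPKM in IUGR pigs (log2 fold change -0.78, adjusted p = 0.486). At that locus, and at the first row of ENSSSCG00000000414, the IUGR pigs lay below all normal pigs.

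Descriptions and symbols placed 287 members in 18 functional classes, and 15 of these were higher (5.23%) and 3 lower (1.05%) at an unadjusted p under 0.05, close to the 6.0% and 0.794% of all tested loci. Class medians ran from -0.04 for conjugation and other drug metabolism to 0.38 for cytosolic ribosomal proteins, whose 8 members include the kinases RPS6KA4 and RPS6KC1, and none of the 8 had an unadjusted p under 0.05. In lipid and bile acid metabolism 2 of 6 were among the 15. LPIN1, a phosphatidate phosphatase of triglyceride synthesis, stood at 3.59, 3.22 and 2.17 FPKM in normal and at 4.53, 7.61 and 6.64 FPKM in IUGR pigs (log2 fold change 0.86, adjusted p = 0.392). PLCG2, a phospholipase of immune cells, had a log2 fold change of 0.63 with overlapping groups. The 1458 members with no name had shares of 6.93% higher and 0.823% lower at that threshold, against 5.43% and 0.776% of members with a description or symbol.

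Pairs of members could be set side by side where they carried the same annotation. For vitronectin, an adhesive plasma protein, the locus on chromosome 18 stood at 1280, 426 and 608 FPKM in normal and at 808, 1493 and 1253 FPKM in IUGR pigs, and the locus on chromosome 12 at 348, 360 and 171 FPKM and at 136, 373 and 344 FPKM. Their ratio was 1.18 in normal 2 and 3.55–5.96 in the other pigs. Serum amyloid A, an acute-phase protein, was spread over 3 members by SAA1 on chromosome 2. ENSSSCG00000013370 stood at 542, 158 and 86.7 FPKM in normal and at 1356, 37.3 and 33.5 FPKM in IUGR pigs, whereas ENSSSCG00000021847 stood at 109, 31.9 and 53.8 FPKM and at 38.9, 194 and 159 FPKM. IUGR 1 was thus the highest of all pigs at the first and below the other IUGR pigs at the second. These pairs were chosen after their values were seen.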

How the data were processed

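Poly(A) RNA from the livers of 3 normal and 3 IUGR pigs was read in paired ends, with 1 library per pig. Per the submitters' processing notes the authors used TopHat2 2.0.14 with Bowtie2 2.0.6, Cufflinks 2.2.1, Cuffdiff 2.1.1 and edgeR 3.2, on Sscrofa10.2, the build of the coordinates here. The authors deposited FPKM values, normalized for length and library size, in 1 table without read counts, so no count test was run and the depth behind a value is unknown. Values were compared as log2(FPKM + 1), which understates changes of low loci, with limma 3.58.1 in R 4.3.3 (eBayes with a trend), two-sided, over 14727 annotated loci with a mean of at least 0.3 FPKM, with Benjamini-Hochberg adjustment. The model was also run on simulated data. These had loci that varied independently and no shift between libraries, so they cannot show how the model handles the mapped-ratio shift.

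Members and lists were chosen with earlier results of these data known. The text draws its named members from the 12 highest and the 10 with the lowest p in each direction. It also draws on the 3 highest and 2 lowest in p of each class, and on the 8 with the largest SD within groups. Members in runs of at least 4 and those at the limit were eligible too. Not all members of these lists are named. Members outside these lists were chosen after their values were seen, as were the 15 GO groups, the neighbourhoods and the limits of 20 and 1 FPKM. Names come only from the table and the reference tables. Alternatives changed the pseudocount, filter, loci tested, scaling, trend, replicate block, status and libraries. A fit with the mapped-ratio set as a term was added after seeing the data.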

Additional observations from a re-analysis of the deposited data

How the results depend on the processing

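The 4 counts and the median of the report were recomputed under 18 alternatives. Without a filter on low values 11 members were lower at an unadjusted p under 0.05 (0.442%, beside 0.912% of all loci tested in that fit; shares in brackets below are of members and of all loci tested). Testing loci of at least 1 FPKM called 1 member higher (0.0402% and 0.0406%) and 2 lower (0.0804% and 0.0487%), and keeping only loci whose status was OK in every library called 1 and 1 (0.0402% and 0.034% each). Averaging IUGR 2 with IUGR 3 called 2 and 2 (0.0804% each, and 0.0815% and 0.0407%), with 96 higher at an unadjusted p under 0.05 (3.86% and 3.56%). Testing all assembled loci gave 98 higher (3.94% and 2.85%) and 8 lower (0.321% and 4.49%) at that threshold, median scaling 97 lower, quantile scaling 122 lower, and the mapped-ratio set as a term 53 lower (2.13% and 1.97%) with a median of 0.05. With each library left out in turn, 1–23 members were called higher and 0–5 lower, 85–733 were higher and 20–33 lower at an unadjusted p under 0.05, and the median ran from 0.05 to 0.31. The count of 733 was without normal 1 (29.4% and 28.4%) and those of 23 (0.924% and 0.869%) and 5 (0.201% and 0.204%) without IUGR 1, which leaves the closest libraries as the IUGR group. The replicate block called 39 (1.57% and 1.13%) and 11 members (0.442% and 0.536%), but whether its numbers pair littermates is unknown. Deviations of pigs with the same number correlated at -0.22, -0.07 and -0.17. The highest values, 0.23 each, were for normal 1 with IUGR 2 and normal 3 with IUGR 1. Pigs with the same number always fell in different mapped-ratio sets, so these correlations cannot show whether the numbers mark pairs. The 59 members followed singly are those of lowest p, overall and in each class, and those by the histone genes and COL1A1, and 1 of them changed direction. In a wider set of 359 members, which holds those named only for their level or spread, the sign of the log2 fold change differed at 57 with the mapped-ratio set, 63 with median scaling and 87 with quantile scaling, and with the mapped-ratio set LAMTOR5 went from 0.53 to -1.39. ENSSSCG00000003278, described as a leukocyte immunoglobulin-like receptor, moved from 0.01 to -0.14 after median scaling, -0.027 after quantile scaling, -0.11 with the mapped-ratio set, -0.51 without normal replicate 3 and -0.25 without IUGR replicate 1, within a range of -0.51 to 0.50 over the left-out pigs. The causes were not tested. The table gives no counts, so counting error, above all of values near 0, is unknown.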

Other observations

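Among members chosen by an extracellular matrix GO term or by the symbol of a matrix gene, a list made after values were seen, 6 of 12 were higher in IUGR pigs at an unadjusted p under 0.05 from limma, beside 6.0% of all tested loci, and all IUGR pigs stood above all normal pigs at 7, beside 8.39%. Both rows of FBLN2, which share an identifier and an interval, are among the 6, and 2 of the 6 reached the mean of 1 FPKM only through the IUGR group. In the wider class of cytoskeleton, matrix and adhesion, set by descriptions and symbols, 2 of 21 members were higher at that threshold. All IUGR pigs stood above all normal pigs at 3 of these 21. COL16A1, a collagen of fibril surfaces, stood at 2.60, 1.56 and 1.36 FPKM in normal and at 3.79, 4.49 and 3.63 FPKM in IUGR pigs. SPARC, a collagen-binding protein, stood at 14.4, 7.47 and 9.53 FPKM in normal and at 18.2, 20.3 and 15.8 FPKM in IUGR pigs, and LAMA4, a laminin chain of vessel walls, at 4.72, 2.94 and 3.19 FPKM and at 7.07, 6.35 and 5.42 FPKM. FBLN1, a matrix glycoprotein, did not separate, at 32.8–48.8 FPKM in normal pigs and 32.9–39.6 FPKM in IUGR pigs.

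Glycine N-acyltransferases conjugate acyl groups to glycine in mitochondria. All 4 members with that GO term lay in 1 run between GLYATL2 and CNTF on chromosome 2. Among loci with a symbol, on the chromosomes of the members and with a mean of at least 1 FPKM, none carried the term. ENSSSCG00000013149 stood at 416, 320 and 289 FPKM in normal and at 332, 372 and 356 FPKM in IUGR pigs, and ENSSSCG00000013150 at 226, 177 and 199 FPKM and at 205, 214 and 196 FPKM. The groups overlapped at all 4 loci.

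The stellate cell and fibroblast markers given beside the COL1A1 loci were also higher in sum in every IUGR pig. The endothelial markers summed to 49.7–93.1 FPKM in normal and to 79.5–99.96 FPKM in IUGR pigs, with log2 fold changes of 0.73 for PECAM1, 0.72 for VWF, 0.47 for STAB2 and -0.07 for LYVE1. The part of either cell type in the matrix values was not tested.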
